A study of Mus musculus with 8 samples.

Results

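The genes Dcx, Sox2, Sox4, Sox11, Igfbpl1, Cd24a, Mki67 and Top2a, which mark neural stem cells, dividing cells and young neurons of the adult brain, were examined in bulk RNA-seq of whole mouse brains. They were chosen by symbol, and all 8 of 8 were found among the 24343 genes of the deposited table. RNA was measured in whole brains of 3 C57BL/6NCrl mice 56 to 62 days of age, of which mice 1 and 2 gave 3 libraries each and mouse 3 gave 2. The labels gave no genotype, treatment or sex for these mice, so that the samples form 1 condition and the comparisons below are between genes and between individual mice. No source said whether libraries of a mouse came from separate extractions, so that p-values measure the spread between these libraries, which may be technical. Values are FPKM (fragments per kilobase of transcript, scaled to the mapped fragments of a library), a level per transcript length that allows genes to be compared within a library, summed over the transcripts of a gene.

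In the adult mouse brain, new neurons arise mainly in the subventricular zone of the lateral ventricles, from which they migrate to the olfactory bulb, and in the dentate gyrus of the hippocampus. Astrocyte-like stem cells give rise to dividing progenitors, which become neuroblasts and then young neurons. Sox2 is a transcription factor of neural stem cells that astrocytes and other glia of the adult brain also express. Mki67 encodes the Ki-67 protein of dividing cells, and Top2a encodes the DNA topoisomerase that resolves entangled chromosomes at mitosis. Sox4 and Sox11 are related transcription factors of neuronal differentiation, Dcx encodes doublecortin, a microtubule-associated protein of migrating neuroblasts, and Igfbpl1 and the surface glycoprotein gene Cd24a are used as markers of neuroblasts. Cd24a is also a marker of ependymal cells.

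The genes were located from the table on mm10 and their exons were counted in GENCODE M21. Sox2, Sox4 and Sox11 have a single exon each, and all 3 models are protein coding. Sox2 (chr3:34650005-34652460, plus strand) lies within the long non-coding RNA gene Sox2ot, of which 0 exons overlapped the Sox2 model. Sox11 spans chr12:27334268-27342718 on the minus strand. Sox4 (chr13:28950730-28953682, minus strand) was modelled with 2953 bases, whereas the RefSeq gene on GRCm38.p6 is 4781 bases long. Dcx (chrX:143855842-143933219, minus strand) has 7 exons in each of its 4 transcripts. Igfbpl1 (chr4:45809507-45826827, minus strand) has 5 exons, Cd24a (chr10:43579169-43584265, plus strand) has 2, Mki67 (chr7:135689788-135716379, minus strand) has 14 and Top2a (chr11:98992947-99024189, minus strand) has 36.

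Promoter windows of RefSeq on GRCm38.p6, from 250 bases before to 50 bases after a transcription start, were found for 6 of the 8 genes. The windows of the cell-cycle genes Mki67 (chr7:135716330-135716629, minus strand) and Top2a (chr11:99024140-99024439, minus strand) are shown because promoters of genes of G2 phase and mitosis are known for CCAAT boxes and for the cell-cycle genes homology region, whose core is TTTGAA. Capitals mark CCAAT and TTTGAA on either strand, the other strand being read as ATTGG and TTCAAA, and matches of these words can overlap each other.
Mki67: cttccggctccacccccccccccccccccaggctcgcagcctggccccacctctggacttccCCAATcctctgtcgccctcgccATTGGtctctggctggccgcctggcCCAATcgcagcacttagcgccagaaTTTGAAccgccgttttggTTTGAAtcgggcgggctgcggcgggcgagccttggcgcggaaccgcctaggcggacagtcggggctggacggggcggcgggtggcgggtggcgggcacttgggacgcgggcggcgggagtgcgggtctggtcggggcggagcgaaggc
Top2a: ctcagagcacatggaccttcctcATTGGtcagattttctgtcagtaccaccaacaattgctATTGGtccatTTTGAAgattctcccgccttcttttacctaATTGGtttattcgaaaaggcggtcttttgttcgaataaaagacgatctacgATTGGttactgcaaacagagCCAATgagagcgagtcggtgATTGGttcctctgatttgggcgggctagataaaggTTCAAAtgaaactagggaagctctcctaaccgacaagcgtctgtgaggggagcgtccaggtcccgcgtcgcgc
The Mki67 window held 3 matches to CCAAT and 2 to TTTGAA, all of them before the start. The Top2a window held 6 matches to CCAAT and 2 to TTTGAA, also all before the start. At least 1 match to each of these words was found for 11 of 16 genes of a list of G2 phase and mitosis that have a window, and for 7.96% of all 26994 genes with a window. CCAAT was found in a window of 41.0% of all these genes and TTTGAA in one of 20.2%. Sox2, Sox4, Sox11 and Dcx also held at least 1 CCAAT, with 4 matches in Sox4, and Sox2 and Sox11 held 1 TTTGAA each.

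The window of Dcx at the start of 3 of its 4 transcripts (chrX:143933170-143933469, minus strand) is shown because the table divided Dcx RNA between this start and another 95 bases downstream, beyond the end of the window. Capitals mark the 50 bases from the upstream start on.
Dcx: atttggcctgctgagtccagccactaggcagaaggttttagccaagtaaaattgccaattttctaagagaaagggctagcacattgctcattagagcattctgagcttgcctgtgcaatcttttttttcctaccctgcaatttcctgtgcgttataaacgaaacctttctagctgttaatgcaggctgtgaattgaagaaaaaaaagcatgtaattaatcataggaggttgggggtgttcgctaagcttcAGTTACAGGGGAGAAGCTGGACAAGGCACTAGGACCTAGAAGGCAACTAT
The Dcx window held 1 match to CCAAT and 0 to TTTGAA.

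Levels of the 8 genes ranged from Sox2 at 14.7 ± 0.924 FPKM (mean ± SD of the means of 3 mice, as for the levels below) to Mki67 at 0.206 ± 0.0395 FPKM. Between them lay Cd24a at 9.64 ± 1.05, Sox4 at 5.73 ± 0.212, Dcx at 3.82 ± 1.18, Sox11 at 2.46 ± 0.383, Igfbpl1 at 0.629 ± 0.127 and Top2a at 0.443 ± 0.104 FPKM. The order was the same in 7 of 8 libraries, and in library 1 of mouse 2 Top2a lay above Igfbpl1. Among neighbours in this order, the ranges over the 3 mice overlapped for Dcx and Sox11 and for Igfbpl1 and Top2a, but within each mouse Dcx lay above Sox11, in 3 of 3 mice and 8 of 8 libraries, by 1.52 ± 0.268 times. Igfbpl1 lay above Top2a in 2 of 3 mice, and that pair did not differ beyond its spread. Of all 24343 genes, 81.9% had a lower level than Sox2 and 36.3% a lower level than Mki67. The median of the 8 genes was 3.14 FPKM, against 8.81 FPKM for the 13001 genes whose mean reached 1 FPKM. The coefficient of variation between mice had a median of 17.4% for the 8 genes and 12.3% for those 13001 genes. Of the 8 genes, 5 reached 1 FPKM and entered the test between mice, and Igfbpl1, Top2a and Mki67 did not.

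**Figure D1:**
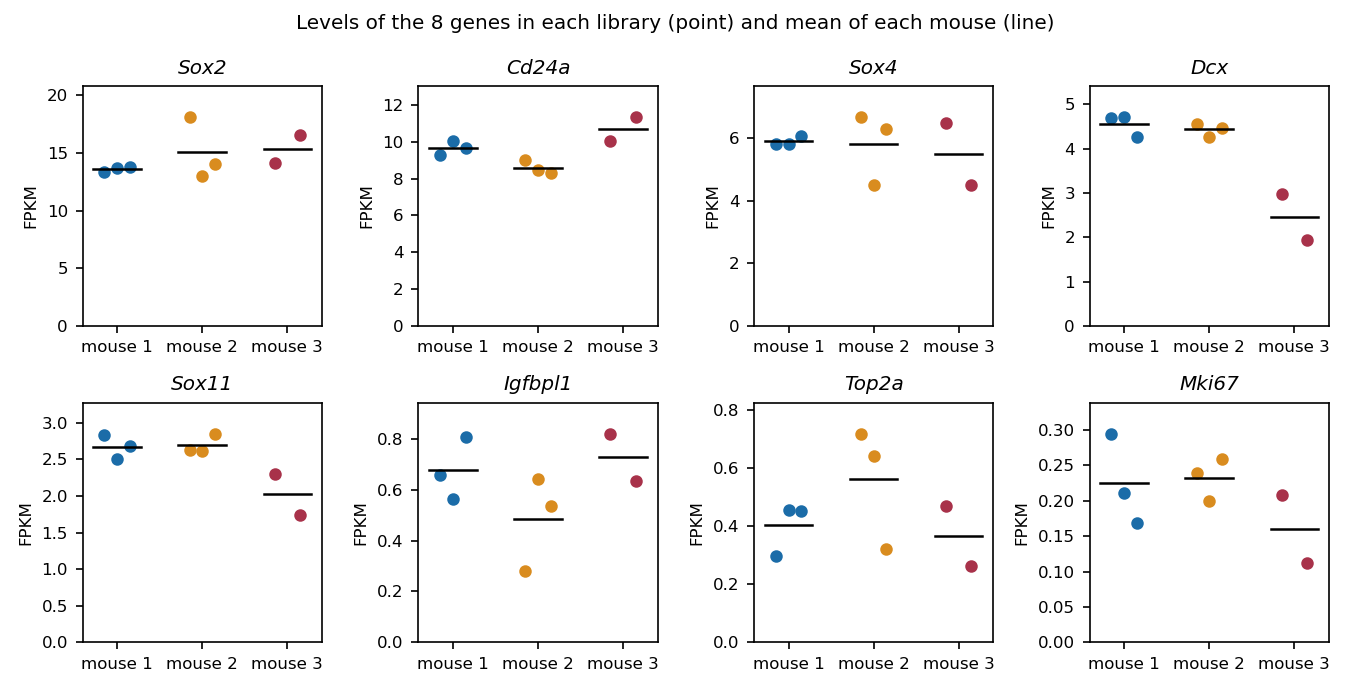
FPKM of each gene (vertical axes, each from 0) in the 3 libraries of mouse 1, the 3 of mouse 2 and the 2 of mouse 3 (points), with the mean of each mouse (lines). Both Dcx libraries of mouse 3, at 2.98 and 1.93 FPKM, lie below the 6 others, which lie between 4.27 and 4.71 FPKM.

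The libraries of mouse 3 stood apart from the others. Depth was 1.31 to 2.02 gigabases on transcripts, the product of deposited coverage and length. The FPKM of all genes summed to 384885 and 409889 in mouse 3 and to between 295541 and 345572 in the other 6 libraries. A gene's deviation from its mean over the libraries was correlated with transcript length across genes at Spearman rho -0.36 and -0.57 in the libraries of mouse 3 and between 0.18 and 0.50 in the others, which describes genes that are not independent replicates. Between the mice, 3310 of 13001 genes (25.5%) passed a moderated F-test in limma on log2(FPKM + 1) values with a Benjamini-Hochberg adjusted p under 0.05, of which 1464 (11.3% of those tested) were lowest in mouse 3 and 1829 (14.1%) were highest in it. Mouse 3 was lowest in 44.2% of these calls, and in 85.4% of the 5646 calls made with libraries scaled to the same total. Without mouse 3, 3 genes passed, and without library 2 of mouse 3 alone 126 passed. Snap25, a synaptic gene of neurons, was at 1056 ± 56.3 FPKM, and every listed marker of astrocytes, oligodendrocyte precursors, ependymal cells and microglia was above 0. All libraries held RNA of the Y-linked genes Ddx3y, Uty, Kdm5d and Eif2s3y (lowest value 2.75 FPKM) and at most 0.0246 FPKM of Xist, genes that were looked at after the other values were seen, so that the libraries did not differ in this pattern.

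Of the 5 genes tested, Dcx alone differed between the mice, and it was lower in mouse 3 by 45.4%. Its level was 4.70, 4.71 and 4.27 FPKM in the libraries of mouse 1, 4.57, 4.27 and 4.47 FPKM in those of mouse 2, and 2.98 and 1.93 FPKM in those of mouse 3. Mice 1 and 2 overlapped and mouse 3 lay below both, with its library 2 the lower. In bulk RNA, fewer cells of a type and less RNA per cell cannot be told apart. Differences of the mouse 3 libraries as a whole, such as their FPKM totals and length trend, are confounded with the mouse. On the log2(FPKM + 1) scale, the difference of mouse 3 from the other mice was -0.69 ± 0.11 (SE over libraries). The F-test between the mice in limma gave a Benjamini-Hochberg adjusted p of 0.0122 over all 13001 genes. Beside a difference of mouse 3, an adjusted p here and below tests any difference between the mice, not that contrast alone. In the same direction, 1464 genes (11.3%) passed. Of all tested genes, 1.32% had a lower difference than Dcx, as had 2.19% of the 2600 genes with the longest transcripts. With the trend on transcript length removed from each library the difference was -0.42 (adjusted p = 0.0148, limma), and after scaling to equal totals it was -0.90 (adjusted p = 0.00311, limma). That scaling moved the median difference of all tested genes from 0.02 to -0.23, and relative to the median Dcx differed by -0.71 before and -0.67 after it. Without library 2 of mouse 3 the difference was -0.47 and no longer passed (adjusted p = 0.0728, limma).

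The FPKM of single Dcx transcripts varied far more between libraries than their sum. NM_001110222, the transcript of the downstream start, was at 1.87, 1.73 and 0.803 FPKM in mouse 1, 1.82, 2.35 and 1.62 FPKM in mouse 2, and 0.750 and under 0.1 FPKM in mouse 3. It held between 18.8% and 55.0% of Dcx in the first 7 of these libraries and 1.2e-05% in library 2 of mouse 3. NM_001110223, from the upstream start, held 86.3% of Dcx in that library and at most 19.9% in any other. NM_001110224 ranged from 0.0461% to 67.0% of the gene and NM_010025 from 0.0185% to 58.1%, both from the upstream start. These 3 transcripts are 8982, 8979 and 8964 bases long, and NM_001110222 is 9060 bases long. The transcript with the highest level was NM_001110222 in 4 libraries, NM_001110224 in 2, and NM_001110223 and NM_010025 in 1 each. For NM_010025 the deposited confidence bounds of 24 of 28 pairs of libraries did not overlap, and libraries of the same mouse lay apart in this way too, such as 1.52 (1.22 to 1.82) FPKM in library 2 of mouse 1 and under 0.1 (0 to 0.0144) FPKM in its library 3. With the highest transcript taken in place of the sum, the difference of mouse 3 was -0.15 (adjusted p = 0.589, limma).

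**Figure D2:**
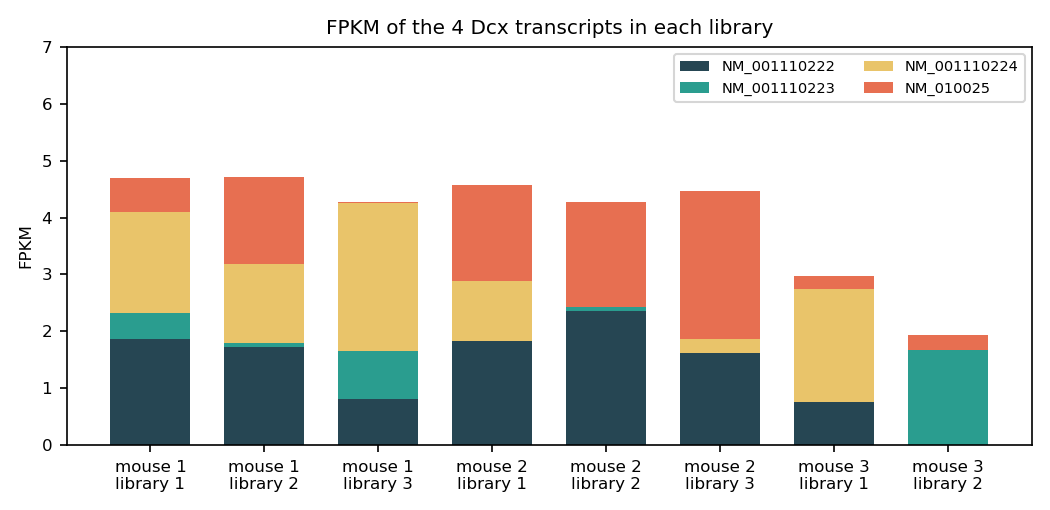
FPKM of the 4 Dcx transcripts, stacked, in each of the 8 libraries. The stacks of mice 1 and 2 end between 4.27 and 4.71 FPKM, whereas the transcript that holds most of a stack changes between libraries of the same mouse.

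Sox11 and Sox4, which act in newly formed neurons, did not pass the test between mice. Sox11 was at 2.83, 2.50 and 2.68 FPKM in mouse 1, 2.63, 2.62 and 2.85 FPKM in mouse 2, and 2.31 and 1.74 FPKM in mouse 3. Both libraries of mouse 3 lay below the other 6, as they did for Dcx and for 21.7% of all tested genes, and the difference of mouse 3 was -0.29 ± 0.09 on the log2(FPKM + 1) scale (adjusted p = 0.0895, limma). With the length trend removed it was -0.04 (adjusted p = 0.887), and with libraries scaled to the same total it was -0.49 and passed (adjusted p = 0.0122), both in limma. Sox11 has a transcript of 8451 bases, and Dcx and Sox11 both lie among the 2600 genes with the longest transcripts (4702 to 19827 bases), in which the median difference of mouse 3 was -0.20 and 25.7% of genes passed with mouse 3 lowest. Among the 2601 genes with the shortest transcripts (77 to 1558 bases) these values were 0.42 and 1.73%.

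Sox4 was at 5.81, 5.82 and 6.05 FPKM in mouse 1, 6.66, 4.49 and 6.30 FPKM in mouse 2, and 6.48 and 4.51 FPKM in mouse 3. The spread within mice 2 and 3 was larger than that between the means of the mice, and the adjusted p was 0.873 in limma. Sox4 lay above Sox11 in every library, by a factor of 2.36 ± 0.310 (mean ± SD of 3 mice). The ratio of Dcx to Sox11 was 1.71 and 1.64 in mice 1 and 2 and 1.21 in mouse 3, and the 2 libraries of mouse 3, at 1.29 and 1.11, lay below the other 6, at 1.57 to 1.88.

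Sox2, the stem cell and glial factor, had the highest level of the 8 genes. It was at 13.3, 13.7 and 13.8 FPKM in mouse 1, 18.1, 13.0 and 14.1 FPKM in mouse 2, and 14.2 and 16.6 FPKM in mouse 3. The groups overlapped and the adjusted p was 0.580 in limma. Sox2ot, the non-coding gene around it, was between 8.66 and 9.84 FPKM in mice 1 and 2 and at 12.9 and 14.1 FPKM in mouse 3, where it was higher by 43.4% (difference 0.48 ± 0.08 on the log2(FPKM + 1) scale, adjusted p = 0.0136 in limma). With libraries scaled to the same total, Sox2ot no longer passed (adjusted p = 0.127, limma). Both genes lie on the same strand with no shared exon.

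Cd24a was at 9.30, 10.02 and 9.64 FPKM in mouse 1, 8.995, 8.48 and 8.28 FPKM in mouse 2, and 10.04 and 11.3 FPKM in mouse 3. Both libraries of mouse 3 lay above the other 6, although only by the gap from 10.02 to 10.04 FPKM, a pattern that 26.5% of tested genes had. All libraries of mouse 2 lay below those of mice 1 and 3. On the log2(FPKM + 1) scale, mouse 2 differed from the mean of the other mice by -0.22 and mouse 3 by 0.21. The test did not pass (adjusted p = 0.0815, limma), and with the length trend removed the adjusted p was 0.730. Of 5 ependymal markers, 4 passed and were highest in mouse 3, beside 14.1% of all tested genes. The levels of the 5 summed to between 31.0 and 33.0 FPKM in mouse 3 and between 11.8 and 18.6 FPKM in mice 1 and 2. The 4 were Foxj1, a factor of motile cilia, Ccdc153, Tmem212, the lowest at 2.32 ± 0.986 FPKM, and Rarres2, the highest at 9.27 ± 5.34 FPKM, with adjusted p from 0.0192 to 0.0400 in limma. Of the 5, 1 passed with the length trend removed, 2 with libraries scaled to the same total and 0 without library 2 of mouse 3. The part of ependymal RNA in the Cd24a values was not tested.

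Igfbpl1 was at 0.657, 0.565 and 0.806 FPKM in mouse 1, 0.281, 0.642 and 0.536 FPKM in mouse 2, and 0.819 and 0.634 FPKM in mouse 3. Its highest library was 2.92 times its lowest, and all 3 mice overlapped. The ratio of Igfbpl1 to Dcx was 0.275 and 0.328 in mouse 3, above the 0.0614 to 0.189 of the other 6 libraries. Between 1.34 and 5.48 kilobases were read on the 2729 bases of Igfbpl1 in each library, against 37.3 to 94.1 kilobases on Dcx. The part of depth and of transcript length in this ratio was not tested. Without a minimum level, the adjusted p of Igfbpl1 between mice was 0.375 in limma.

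The genes of dividing cells lay near the lower end of what these libraries measured. Mki67 was at 0.294, 0.211 and 0.169 FPKM in mouse 1, 0.239, 0.199 and 0.258 FPKM in mouse 2, and 0.208 and 0.112 FPKM in mouse 3. Top2a was at 0.298, 0.457 and 0.451 FPKM in mouse 1, 0.718, 0.641 and 0.322 FPKM in mouse 2, and 0.468 and 0.263 FPKM in mouse 3. All 3 mice overlapped for both genes, and without a minimum level the adjusted p was 0.626 for Mki67 and 0.544 for Top2a in limma. Between 2.49 and 6.00 kilobases were read on the 10075 bases of Mki67 in each library and between 3.02 and 7.01 kilobases on the 5217 bases of Top2a, against 63.0 to 85.1 kilobases on Sox2. The libraries of mouse 2 differed by 2.23 times for Top2a, and the part of depth in that spread was not tested. Top2a lay above Mki67 in all 8 libraries, by 1.01 to 3.22 times. Mki67, Top2a, Sox11 and Dcx were all lowest in library 2 of mouse 3, and they are the 4 genes with the longest transcripts of the 8.

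Of 20 genes of G2 phase and mitosis, Ccna2, which encodes cyclin A2, alone reached 1 FPKM (1.13 ± 0.0716 FPKM), and the median was 0.394 FPKM with the lowest level in the kinetochore kinase gene Bub1 (0.109 ± 0.0252 FPKM). Of 1 gene tested in this list 0 passed between mice. Lists of DNA replication and of G1 had higher medians (5.13 FPKM for G1), although both held genes below 1 FPKM. Of 13 genes of DNA replication, 8 were tested and 0 passed, with a median of 1.19 FPKM. Pcna, the replication clamp that also acts in DNA repair, was the highest at 34.7 ± 6.39 FPKM and the origin licensing gene Cdc6 the lowest at 0.0863 ± 0.0235 FPKM. Pcna lay 102 to 396 times above Mki67. Of 12 G1 cyclins, kinases and inhibitors, 11 were tested and 0 passed, and their levels ran from Cdk6 at 0.231 ± 0.0407 to Cdk4 at 22.6 ± 4.68 FPKM. At an unadjusted p under 0.05, these counts were 0 of 1 for G2 phase and mitosis, 2 for DNA replication and 2 for G1, beside 40.8% of all tested genes at that threshold. With libraries scaled to the same total, 3 of 8 replication genes and 2 of 11 G1 genes passed, all lowest in mouse 3. Of all 12988 genes tested in that setting, 4821 passed with mouse 3 lowest.

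**Figure D3:**
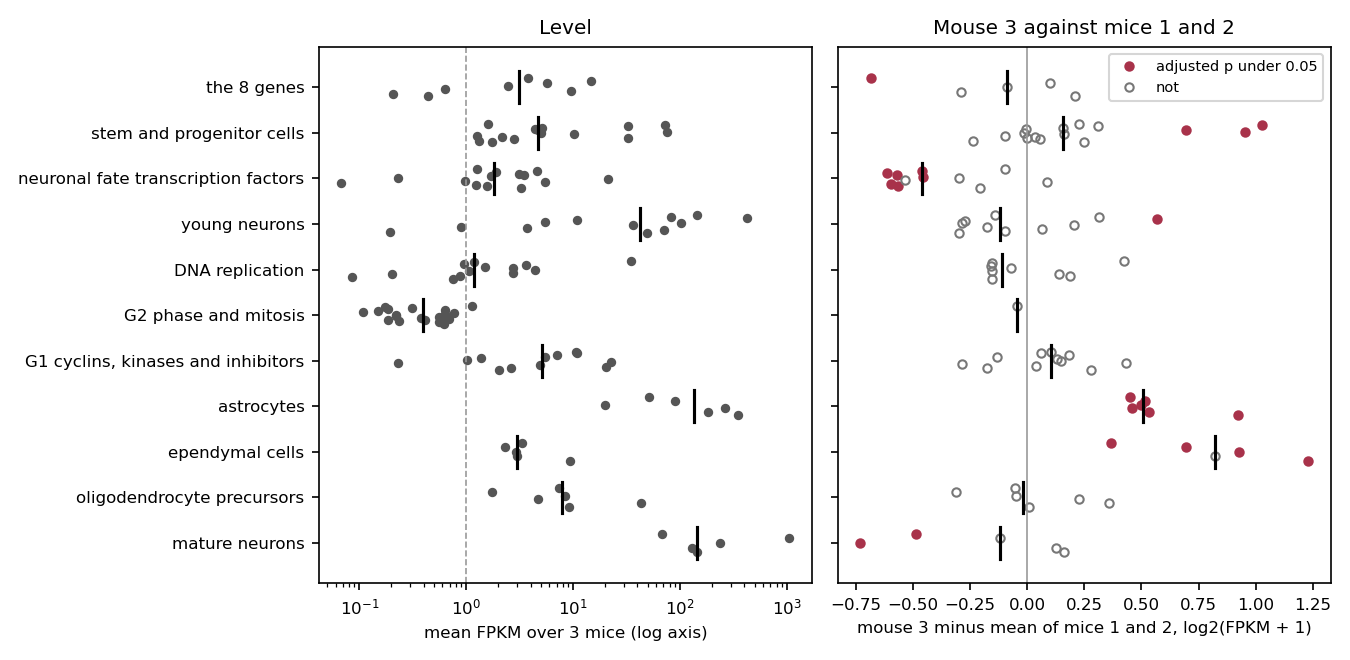
Left, mean FPKM over 3 mice of each gene of 11 groups (points, log axis) with the median of the group (vertical bars) and a dashed line at 1 FPKM. Right, difference of mouse 3 from the mean of mice 1 and 2 for the genes tested, where filled points passed the test between mice, as Dcx did at -0.69. Of the 11 neuronal fate factors, 10 lie to the left of 0, and the astrocyte and ependymal markers to the right.

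Of 14 transcription factors of neuronal fate, 11 were tested and 6 differed between mice, all lowest in mouse 3, as were Dcx and 11.3% of all tested genes. The median difference of the 11 was -0.46 on the log2(FPKM + 1) scale, against 0.02 for all tested genes. The 6 were Dlx1, Dlx2, Dlx5 and Dlx6, homeobox factors of GABAergic neurons, and Sp8 and Sp9, zinc-finger factors of olfactory bulb interneurons. Sp8 was between 1.23 and 1.64 FPKM in mice 1 and 2 and at 0.748 and 0.601 FPKM in mouse 3, lower by 56.0% (difference -0.60 ± 0.09, adjusted p = 0.00895). Dlx2 was between 1.91 and 2.70 FPKM in mice 1 and 2 and at 1.29 and 1.01 FPKM in mouse 3, lower by 49.8% (-0.61 ± 0.10, adjusted p = 0.0110). The groups did not overlap for either gene. Sp9 was lower by 49.0%, Dlx5 by 41.9%, Dlx6 by 34.4% and Dlx1 by 32.3%, with adjusted p from 0.00784 to 0.0324 in limma. For Dlx6 the libraries of mouse 3 overlapped those of mouse 2. Its means were 4.61, 3.20 and 2.56 FPKM in mice 1, 2 and 3, and mouse 1 lay above both others. Without mouse 1, Dlx6, Sp9 and Dlx1 did not pass (adjusted p = 0.269, 0.0547 and 0.0501, limma). Transcripts of these 6 genes were 1071 to 4480 bases long, shorter than those of the 2600 longest. With the length trend removed, 6 of the 11 passed again, all lowest in mouse 3, with libraries scaled to the same total 9 passed, and without library 2 of mouse 3, 0 passed although 10 of 11 differences were below 0.

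The other neuronal fate factors did not pass. Neurod1, which acts in granule neurons of the dentate gyrus and cerebellum, had the highest level of the list at 20.99 ± 4.43 FPKM, with 20.7 to 29.9 FPKM in mice 1 and 2 and 14.1 and 17.7 FPKM in mouse 3 (adjusted p = 0.0559). Gsx2, a factor of ganglionic progenitors, had the lowest at 0.0681 ± 0.0433 FPKM.

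Of 15 genes of stem and progenitor cells, all were tested and 3 passed, all highest in mouse 3, beside 14.1% of all tested genes. Gfap, the intermediate filament gene of astrocytes and of adult neural stem cells, was between 49.8 and 58.5 FPKM in mice 1 and 2 and at 101 and 120 FPKM in mouse 3 (higher by 106%, difference 1.03 ± 0.09, adjusted p = 0.00510). Fabp7, a fatty acid binding protein of radial glia and astrocytes and the highest of the list at 74.9 ± 32.9 FPKM, was higher by 102% (0.96 ± 0.17, adjusted p = 0.0161), and the Notch target Hes5 by 83.2% (0.69 ± 0.16, adjusted p = 0.0373). With the length trend removed, Fabp7 and Hes5 did not pass (adjusted p = 0.180 and 0.119, limma). Hes5 also did not pass with libraries scaled to the same total (adjusted p = 0.0700, limma). All 6 astrocyte markers passed and were highest in mouse 3, beside 14.1% of all tested genes. Their levels summed to between 1248 and 1270 FPKM there and between 776 and 834 FPKM in mice 1 and 2. They were Aqp4, Gja1, Slc1a2, Slc1a3, Aldoc, the highest at 346 ± 139 FPKM, and Aldh1l1, the lowest at 19.8 ± 4.34 FPKM, with adjusted p from 0.00510 to 0.0168 in limma. With libraries scaled to the same total, the 6 differences kept their sign and 1 passed. The part of astrocyte RNA in the values of Sox2 and Gfap was not tested.

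Of 12 genes of young neurons, 10 were tested and 1 passed, highest in mouse 3, beside 14.1% of all tested genes. This gene was Stmn1, which encodes the tubulin-binding stathmin. It had the highest level at 421 ± 103 FPKM, and was between 306 and 390 FPKM in mice 1 and 2 and at 494 and 582 FPKM in mouse 3 (higher by 48.5%, adjusted p = 0.0154). It passed with mouse 3 highest, whereas Dcx passed with mouse 3 lowest, and it did not pass with the length trend removed (adjusted p = 0.149) or with libraries scaled to the same total (adjusted p = 0.0521), both in limma. The calls in this list depended on the scaling. With the length trend removed 2 of the 10 passed, and with equal totals 6 did, all of them lowest in mouse 3. Of all genes tested in these settings, 1216 of 13001 and 4821 of 12988 passed with mouse 3 lowest. Draxin, a guidance factor, was the lowest at 0.192 ± 0.0167 FPKM. Of the mature neuron markers, Syt1 and Rbfox3 passed and were lower in mouse 3, by 39.6% and 29.0%, and the other 3, Snap25, Map2 and Nefl, did not pass. The young neuron list had a median of 42.5 FPKM, against 3.82 FPKM for Dcx. The part of mature neurons in the values of that list and of Dcx was not tested.

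Relatives of Dcx and Top2a were far more abundant than they were. Dclk1, a doublecortin-like kinase gene of mature and young neurons, was at 87.5 ± 18.0 FPKM, 20.3 to 30.5 times Dcx in every library. Dclk1 was between 92.7 and 100.2 FPKM in mice 1 and 2 and at 74.6 and 59.0 FPKM in mouse 3, lower by 31.8% (-0.55 ± 0.10, adjusted p = 0.0144). Dclk3 was lower in mouse 3 by 32.9% (adjusted p = 0.0140), and Dclk2 did not pass (adjusted p = 0.363). Top2b, a topoisomerase gene that is also expressed in cells that do not divide, was 36.8 to 84.9 times Top2a. Top2b was lower in mouse 3 by 34.5% (-0.59 ± 0.09, adjusted p = 0.0100, limma). Of 7 related genes tested, Dclk1, Dclk3 and Top2b passed with mouse 3 lowest, beside 11.3% of all tested genes. Sox2ot passed with mouse 3 highest, beside 14.1% of all tested genes. Sox3, a relative of Sox2, had the lowest level of the list at 0.445 ± 0.156 FPKM.

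**Figure D4:**
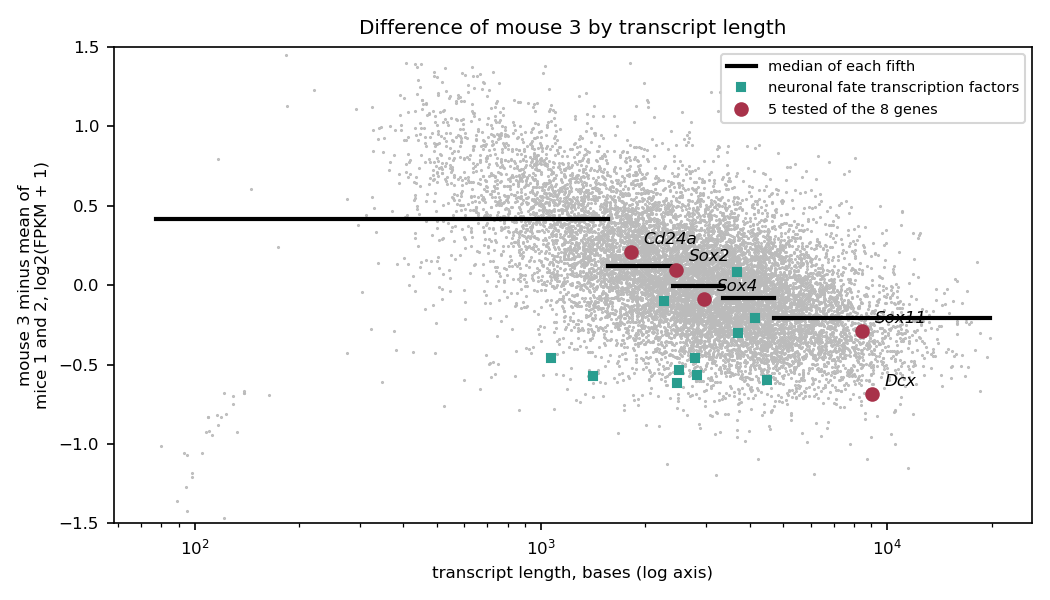
Difference of mouse 3 from the mean of mice 1 and 2 on the log2(FPKM + 1) scale against transcript length (log axis) for the 13001 tested genes (grey, 48 of them outside the plotted range of -1.5 to 1.5), with the medians of 5 equal classes of genes by length (bars). Dcx at -0.69 lies below the median of -0.20 of the longest class, Sox11 at -0.29 lies nearer to it, and most neuronal fate factors (squares) lie below the medians of genes of their length.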

How the data were processed

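The authors sequenced Kapa mRNA HyperPrep libraries of RNA with an integrity score above 8 on a NextSeq500 instrument. The submitters' processing notes name TopHat, Cufflinks and mm10. Versions, strand setting and read length are not given in the sources used here. The deposited FPKM were estimated by the authors for each of 34535 RefSeq transcripts with confidence bounds, and the deposited coverage is a signal per base that is not scaled to library size. Splitting reads among transcripts makes single transcripts less certain than their sum. FPKM are not counts, so that precision rests on the spread between libraries and mice, with no counting interval. None of the values of the 8 genes had a failed status.

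FPKM were summed per gene, averaged over the libraries of a mouse and then over 3 mice. Differences between mice were tested with limma 3.58.1 in R 4.3.3 (moderated F-test) on log2(FPKM + 1) among genes that reached 1 FPKM on average over mice, in all 8 libraries, with Benjamini-Hochberg adjustment over all 13001 genes and a threshold of 0.05. Such fold changes understate those of low genes. The fit was tested on simulated data. Alternatives were pseudocounts of 0.1 and 0.5, no minimum or a minimum of 5 FPKM, scaling to equal totals (as TPM does), a length trend removed by loess, a block on library number, limma's mean-variance trend, the highest transcript, and each library or mouse left out. An exact permutation test over 3 mice could not reach 0.05, so that levels of genes were compared with no test. Promoter windows came from RefSeq on GRCm38.p6, and exons were counted in GENCODE M21. Igfbpl1 and Cd24a have no window here.

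The 8 genes and all lists were chosen with earlier results of these data known, so that no list's pattern is independent support. Genes named are the 8, of each list those that passed and the highest and lowest, and for each of the 8 the 2 tested genes with the most similar profile; others named as examples were chosen after their values were seen. Some genes that this rule names are not reported here. Deviations of same-numbered libraries of different mice had r between 0.0028 and 0.107, and those of differently numbered libraries between -0.135 and 0.0645. These ranges overlapped, and the numbers were not taken to pair the libraries.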

Additional observations from a re-analysis of the deposited data

How the results depend on the processing

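Of the 8 genes, 5 were tested and 1 (Dcx) passed between mice, as did 25.5% of all 13001 tested genes. The count for the 8 was 2 with libraries scaled to the same total (Dcx and Sox11), where 5646 of all 12988 tested genes passed. It was 0 with the highest transcript, with a minimum of 5 FPKM (which leaves Dcx out) and without mouse 3. It was also 0 with no minimum and a pseudocount of 0.1, an alternative chosen after seeing the data. There the adjusted p of Dcx was 0.0516 (limma). Leaving out single libraries gave 0 to 3, with 0 without library 2 of mouse 3 and 3 (Dcx, Sox11 and Cd24a) without its library 1. Over the alternatives in which mouse 3 could be compared, Dcx was lower in it each time, by 0.15 to 0.91 on the log2 scale, with adjusted p from 0.00311 to 0.589. The difference of Sox4 ranged from -0.31 to 0.13 without single libraries and reversed, to 0.13 (adjusted p = 0.817, limma), without library 2 of mouse 3.

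Of all genes, 3310 passed, against 5646 with equal totals (85.4% of them lowest in mouse 3, against 44.2%), 1792 without mouse 1, 3 without mouse 3, 842 with no minimum and a pseudocount of 0.1, and 126 to 3873 without single libraries. With library number as a block 2995 passed, 31.8% of them lowest in mouse 3, and 1 of the 8 genes did, Dcx again (adjusted p = 0.0169). The check on deviations did not settle whether the numbers pair the samples, and the block changed no call among the 8. Of the neuronal fate factors, 6 passed, against 1 with a minimum of 5 FPKM, 3 without mouse 1, 0 without mouse 3, 3 with no minimum and a pseudocount of 0.1, and 0 to 7 without single libraries. The level of Dcx was 2.05 FPKM with the highest transcript. The level of Sox4 ran from 5.40 to 6.06 FPKM without single libraries, beyond its SD. Apart from counts where fewer genes or samples entered, the cause was not tested. The few bases read on Mki67, Top2a and Igfbpl1 and the number of mice, 3, limit what could be compared.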

Other observations

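The genes whose profile over the 8 libraries lay nearest to that of Dcx were Pnmal2 and Celf2, with a root mean square difference of 0.0261 and 0.0307 on the log2 scale, where Dcx itself deviated from its mean by 0.319. Pnmal2 was between 71.1 and 78.4 FPKM in mice 1 and 2 and at 53.9 and 39.5 FPKM in mouse 3. Celf2, an RNA-binding protein gene, was between 44.5 and 47.2 FPKM in mice 1 and 2 and at 32.5 and 24.2 FPKM in mouse 3. Both were more abundant than Dcx, at means of 65.7 and 40.0 FPKM. For Sox11 they were Bzrap1 and Foxk1 (0.0299 and 0.0311, against 0.149), for Cd24a Sgk3 and Dync2li1 (0.0354 and 0.0355, against 0.124), and for Igfbpl1 Gipc1 and Gpsm1 (0.0365 and 0.0370, against 0.149). Sox2 lay nearest to Ube2d3 and Klf6 (0.0533 and 0.0549, against 0.146), Sox4 to A130077B15Rik and Pcdhb8 (0.0709 and 0.0723, against 0.175), Mki67 to Tmem170b and Mon1b (0.0320 and 0.0331, against 0.0625), and Top2a to Lhx9 and Palmd (0.0702 and 0.0759, against 0.148). With 13001 genes and 8 libraries, near profiles of this kind describe these libraries only.

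Markers of the regions that hold new neurons were also measured. Of the olfactory bulb markers, 3 were tested and Doc2g passed, at 11.1 and 12.4 FPKM in mouse 3 and 6.75 to 8.47 FPKM in mice 1 and 2 (adjusted p = 0.0137, limma). With libraries scaled to the same total Doc2g did not pass (adjusted p = 0.0512, limma). The 1 call among these markers was then Eomes, lowest in mouse 3 (adjusted p = 0.0172, limma). Doc2g had the highest level of these markers at 8.93 ± 2.43 FPKM (SD over 3 mice), and Tbx21 the lowest at 0.413 ± 0.109 FPKM. Of the dentate gyrus markers, 3 were tested and 0 passed in limma (1 at an unadjusted p under 0.05), from Dsp at 0.454 ± 0.191 FPKM to Prox1 at 3.28 ± 0.416 FPKM. The 6 markers of oligodendrocyte precursors, the most widespread dividing cells of the adult brain, were all tested and 0 passed in limma (1 at an unadjusted p under 0.05), with Olig1 the highest at 43.1 ± 6.69 FPKM and Cspg4 the lowest at 1.76 ± 0.310 FPKM. Of 5 microglial markers, with Tmem119 the lowest at 6.20 ± 0.966 FPKM, Cx3cr1 passed (adjusted p = 0.0462, limma). It did not pass with a pseudocount of 0.1 or 0.5, with no minimum, with the highest transcript or with equal totals (adjusted p from 0.0507 to 0.745). Of the 5 haemoglobin and red cell genes, from Alas2 at 2.59 ± 0.0364 to Hba-a1 at 464 ± 52.7 FPKM, Hbb-bt passed (adjusted p = 0.0107, limma). Cx3cr1 and Hbb-bt were highest in mouse 3. Hbb-bt shares near-identical sequence with Hbb-bs, so that its estimate is uncertain.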
